A study of Caenorhabditis elegans with 20 samples.

Results

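The genes described here are named for proteins of the cytosolic ribosome of Caenorhabditis elegans. They were chosen by name: every gene whose WormBase symbol is rpl- or rps- followed by a number was taken, which gave 78 of the 39341 genes in the deposited tables, 31 for the small subunit (rps) and 47 for the large subunit (rpl). Of these, 77 passed the filter on low values (at least 5 CPM in at least 2 libraries) in each experiment. CPM is the number of reads of a gene for every 1000000 reads of its library. The exception was rpl-42, with between 1 and 24 reads per library in the methionine experiment and between 0 and 23 in the RNAi experiment. The choice by name leaves out the ribosomal protein genes rla-0, rla-1, rla-2, ubl-1 and ubq-2, which are described at the end.

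The cytosolic ribosome translates nearly all messenger RNAs of a cell. Each of its subunits is built in the nucleolus from ribosomal RNA and a fixed set of proteins present in equal copy number, and the genes for these proteins are known for being expressed together and at high levels in growing tissue. Most ribosomal proteins of C. elegans come from 1 gene, but a few come from a pair of related genes. In this species the X chromosome is largely silent in early germ cells, and for several pairs with an X-linked and an autosomal copy the autosomal copy has been described as the one with a germline role.

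All animals, wild type included, carried the integrated transgene wwIs24[Pacdh-1::GFP;unc-119(+)], and RNA came from whole animals labelled L4. In their RNA-seq methods the authors describe picking animals from late L4 to early young adult. They also report that nhr-114 RNAi slowed the development of their methionine cycle mutants, but not of the parent strain. In the methionine experiment, Δnhr-114 animals (strain VL1127, allele gk849) and wild type animals (VL749) were grown on Escherichia coli OP50 with soy peptone plates, with 25 mM methionine or without it. In the RNAi experiment, metr-1(ww52);Δnhr-10 animals (VL1201, with nhr-10 allele tm4695), Δmetr-1 animals (VL1102, allele ok521) and wild type animals (VL749) were grown on E. coli HT115 with nhr-114 RNAi or with the empty vector, all with 20 nM vitamin B12. The gene nhr-114 encodes a nuclear hormone receptor and metr-1 the vitamin B12-dependent methionine synthase. The ww52 allele came from a chemical mutagenesis screen, each mutant genotype was a single strain, and metr-1(ww52) was measured only together with the nhr-10 deletion. Each of the 10 groups had 2 libraries, described as biological duplicates.

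The 20 libraries held between 1389117 and 24482380 reads. In Δnhr-114 libraries nhr-114 stood at 0.408 to 0.703 CPM, against 5.41 to 36.6 CPM in wild type libraries of that experiment. In the RNAi experiment, the nhr-114 level of replicate 1 of each group labelled nhr-114 RNAi went against the label. It was 391 CPM in the metr-1(ww52);Δnhr-10 strain, 193 CPM in Δmetr-1 and 340 CPM in wild type, while replicate 2 stood at 3.60, 7.94 and 2.30 CPM. Vector libraries stood at 3.16 to 46.3 CPM, so replicate 1 was above every vector library, and the cause was not tested. In both mutants the 2 replicates with this label were alike in summed germline markers, at 326 to 468 CPM. The other 8 libraries had 864 to 1988 CPM. Libraries of 1 group also differed in stage-related markers. The library of Δmetr-1 on vector replicate 1 had summed yolk genes at 3264 CPM and molting cuticle genes at 493 CPM, against 64.01 and 9536 CPM in replicate 2, and Δnhr-114 without methionine replicate 2 had 3278 and 450 CPM, against 68.0 and 7728 CPM in replicate 1. Markers for intestine, muscle, neurons and germline were detected in all libraries.

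Together, the rpl- and rps- genes took 10.9 to 13.9% of all reads in the methionine experiment and 9.41 to 13.6% in the RNAi experiment. Their summed level was 125600 and 139016 CPM in Δnhr-114 with methionine, 133598 and 109443 CPM in Δnhr-114 without it, 136190 and 125545 CPM in wild type with methionine, and 118474 and 133894 CPM in wild type without it. These 4 groups overlapped. In the RNAi experiment the sum was 110722 and 97390.1 CPM in the metr-1(ww52);Δnhr-10 strain labelled nhr-114 RNAi and 110236 and 104639 CPM in Δmetr-1 labelled nhr-114 RNAi. It was 124562 and 131085 CPM in the metr-1(ww52);Δnhr-10 strain on vector, 94122 and 123055 CPM in Δmetr-1 on vector, 108058 and 135558 CPM in wild type labelled nhr-114 RNAi, and 122293 and 132232 CPM in wild type on vector. The lowest library of all was Δmetr-1 on vector replicate 1. The 2 subunits kept close to 1 ratio, with the rps sum at 0.868 to 0.983 of the rpl sum in every library of both experiments.

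**Figure D1:**
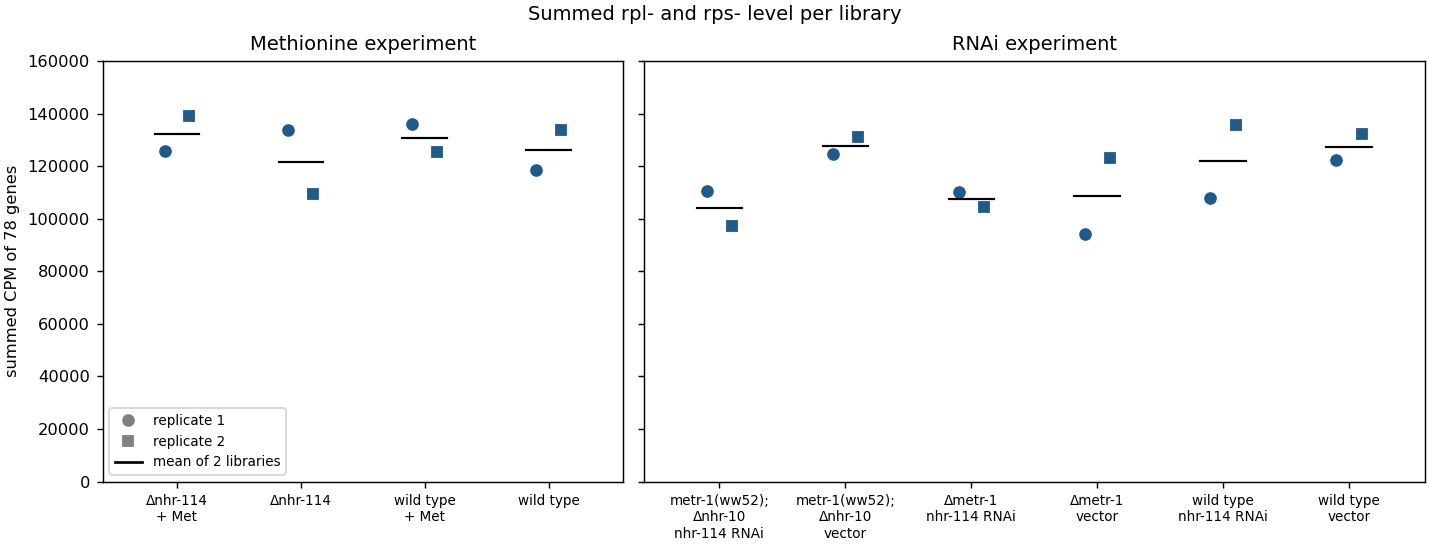
Summed CPM of the 78 ribosomal protein genes (vertical axis, CPM) in each library, by group; circles are replicate 1, squares replicate 2 and bars the mean of 2 libraries. All libraries lie between 94122 and 139016 CPM, and both groups of metr-1 mutants labelled nhr-114 RNAi lie at 110722 CPM or below. So do Δmetr-1 on vector replicate 1 (94122 CPM) and wild type labelled nhr-114 RNAi replicate 1 (108058 CPM). Δnhr-114 without methionine replicate 2 (109443 CPM) does too.

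Levels differed far more between genes than between libraries. The libraries count 3′ ends, so a value carries no term for gene length. Mean CPM of the tested genes ran from 86.7 to 14910 in the methionine experiment and from 83.0 to 13430 in the RNAi experiment. The highest was rpl-41.2, which encodes the very small protein L41, followed by rps-23, a protein of the decoding centre, which averaged 10737 CPM in the methionine and 9232 CPM in the RNAi experiment. Next came rps-20 (5757 and 5982 CPM) and rps-14 (5147 and 4777 CPM) in the same 2 experiments. At the low end stood rpl-24.2, which RefSeq annotates as rsl-24D1, a relative of large-subunit protein L24, at 78.6 to 96.6 CPM and 62.6 to 106 CPM. Across the libraries of an experiment, the highest value of a gene was under 2 times its lowest for 72 of 77 genes in the methionine experiment and for 61 of 77 in the RNAi experiment.

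Genes of well-known function lay between these ends. The small-subunit gene rps-6, the target of S6 kinase, ran from 1457 to 2160 CPM in the methionine experiment and from 1178 to 2089 CPM in the RNAi experiment. The large-subunit gene rpl-3, whose protein lies near the peptidyl transferase centre, ran from 946 to 1469 CPM and from 772 to 1282 CPM. The gene rpl-5, whose protein binds 5S ribosomal RNA together with L11, ran from 465 to 923 CPM and from 471 to 922 CPM, and rpl-12, at the base of the stalk, from 503 to 874 CPM and from 391 to 722 CPM. None of these genes was called in any comparison. Late-joining rpl-10 ran from 1080.0 to 1535 CPM and from 740.2 to 1358 CPM, and rps-3, at the entry of the messenger RNA channel, from 669 to 883 CPM and from 531 to 826 CPM. The gene rps-24, which stood out among the variable genes below, ran from 1232 to 2843 CPM in the methionine experiment. The genes that stayed closest to the median of all ribosomal protein genes, as the SD of that distance over libraries, were rpl-15, rps-5 and rps-0 in the methionine experiment and rpl-13, rpl-21 and rps-5 in the RNAi experiment. The same measure was largest for rpl-11.1, rpl-41.1, rps-24, rpl-7A and rpl-39 in the methionine experiment, with SDs of 0.37, 0.37, 0.31, 0.29 and 0.29 on the log2 scale. In the RNAi experiment it was largest for rpl-36.A, rpl-11.1, rps-9, rpl-25.1 and rpl-41.1, with SDs of 0.76, 0.71, 0.65, 0.45 and 0.43.

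The first experiment asked how added methionine acts on wild type and Δnhr-114 animals. A gene was called where limma, run over all genes tested, gave a Benjamini-Hochberg adjusted p under 0.01 and a change over 1.5-fold. With methionine, 0 of 77 ribosomal protein genes were called in wild type, beside 0% of all 10948 genes tested. Their median log2 change was 0.08, against -0.02 over all genes. Without adjustment 2 of the 77 had p under 0.05, and edgeR and DESeq2 on the recovered reads called 0 and 0. The lowest p belonged to rpl-28, at 1141 and 1154 CPM with methionine, against 780 and 931 CPM without it. Its groups did not overlap, but the log2 change of 0.43 ± 0.17 (SE) had a limma Benjamini-Hochberg adjusted p of 1.00. Libraries did not overlap for 14 genes that stood higher and 2 that stood lower with methionine, beside 9.21% and 10.4% of all genes.

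In Δnhr-114 animals methionine gave the same count. Again 0 of 77 genes were called by limma, beside 0% of all genes, with 0 at an unadjusted p under 0.05 and 0 by edgeR and by DESeq2. The median log2 change was 0.07, against -0.07 over all genes. The gene rps-20 had 6375 and 6272 CPM with methionine, against 5161 and 4445 CPM without it. The groups did not overlap, with a log2 change of 0.40 ± 0.18 (SE) and a limma Benjamini-Hochberg adjusted p of 0.999. Libraries did not overlap for 12 genes that stood higher and 2 that stood lower, beside 11.5% and 18.7% of all genes.

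Between genotypes the counts were no different. Without methionine, Δnhr-114 against wild type had 0 of 77 genes called by limma, beside 0% of all genes, 1 at an unadjusted p under 0.05, and 0 by edgeR and by DESeq2. That gene was rpl-41.1, the less abundant of the 2 L41 genes, at 427 and 518 CPM in Δnhr-114, against 707 and 773 CPM in wild type. Its log2 change of -0.65 ± 0.27 (SE) had a limma Benjamini-Hochberg adjusted p of 0.991 although the groups did not overlap. Libraries did not overlap for 5 genes that stood higher and 4 that stood lower, beside 17.8% and 8.96% of all genes. With methionine, Δnhr-114 against wild type again had 0 called by limma, beside 0% of all genes, 0 at an unadjusted p under 0.05, and 0 by edgeR and by DESeq2. The gene with the lowest p there, rpl-7A, had 1335 and 1763 CPM in Δnhr-114 with methionine, against 858 and 1207 CPM in wild type with methionine, a log2 change of 0.59 ± 0.29 (SE) with a limma Benjamini-Hochberg adjusted p of 1.00. Libraries did not overlap for 7 genes that stood higher and 12 that stood lower, beside 12% and 9.9% of all genes. In that comparison the deleted gene nhr-114 was not called either. Its log2 change was -2.20 ± 0.38 (SE), with a limma Benjamini-Hochberg adjusted p of 0.9997. A count of 0 here thus does not show that nothing changed. The median log2 change of the 77 genes was 0.00 without methionine and -0.03 with it, against 0.10 and 0.04 over all genes. The methionine effect in Δnhr-114 minus that in wild type was called for 0 of 77 genes by limma, beside 0% of all genes, with 0 at an unadjusted p under 0.05 and 0 by edgeR and by DESeq2.

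The second experiment compared metr-1 mutants with wild type, on vector and in groups labelled nhr-114 RNAi. On vector, Δmetr-1 animals had 73 of 77 ribosomal protein genes below wild type in sign, with a median log2 change of -0.28, against 0.10 over all genes. None was called: limma gave 0 of 77, beside 0.113% of all 11543 genes tested, 2 had an unadjusted p under 0.05, and edgeR and DESeq2 called 0 and 0. The groups did not overlap for 28 genes that stood lower and 0 that stood higher, beside 13.8% and 17.4% of all genes. This shift rested largely on 1 library: without Δmetr-1 on vector replicate 1 the median was -0.06, and without replicate 2 it was -0.47. The gene with the lowest p was rpl-37, at 202 and 237 CPM in Δmetr-1 on vector, against 288 and 361 CPM in wild type on vector, a log2 change of -0.56 ± 0.20 (SE) with a limma Benjamini-Hochberg adjusted p of 0.485. Because the RNA came from whole animals, fewer cells of a type and less RNA per cell cannot be told apart here or in any later result.

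In wild type animals labelled nhr-114 RNAi against wild type on vector, limma called 0 of 77 genes, beside 0% of all genes, with 0 at an unadjusted p under 0.05 and 0 by edgeR and by DESeq2. The median log2 change was -0.11, against -0.03 over all genes, and 0.02 without replicate 1 labelled nhr-114 RNAi. The groups did not overlap for 1 gene that stood higher and 15 that stood lower, beside 13.7% and 17.1% of all genes. The lowest p belonged to rps-15, at 835 and 910 CPM in the libraries labelled nhr-114 RNAi, against 1099 and 1214 CPM on vector. The log2 change was -0.41 ± 0.21 (SE), with a limma Benjamini-Hochberg adjusted p of 0.998.

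Against wild type on vector, metr-1(ww52);Δnhr-10 on vector had a median log2 change of -0.03, against 0.02 over all genes, with 29 genes above and 48 below in sign. Limma called 0 of 77, beside 0.26% of all genes, while 4 had an unadjusted p under 0.05, edgeR called 0 and DESeq2 called 1, with 135 called over all genes by DESeq2. The groups did not overlap for 10 genes that stood higher and 11 that stood lower, beside 26.8% and 25% of all genes. Only rpl-36.A and rps-9 were beyond 1.5-fold, and both are described below with their neighbours.

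Few ribosomal protein genes were called in either metr-1 mutant labelled nhr-114 RNAi, groups in which nhr-114 itself was high in replicate 1. In Δmetr-1 animals, libraries labelled nhr-114 RNAi against vector, limma called 1 of 77 genes, beside 12.5% of all genes. The groups did not overlap for 4 genes that stood higher and 8 that stood lower, beside 28.6% and 36.7% of all genes. The median log2 change was 0.05, against -0.11 over all genes, with 51 genes above and 26 below in sign. In this comparison the median over all genes shifted by 0.13 with median-of-ratios scaling, and by 0.16 and 0.25 in the DESeq2 and edgeR fits. In metr-1(ww52);Δnhr-10 animals the same contrast had 0 of 77 called by limma, beside 4.76% of all genes (1.39% higher, 3.38% lower), with 8 at an unadjusted p under 0.05, 0 by edgeR and 1 by DESeq2, which called 1290 of all genes. There 74 of 77 genes stood lower in sign, the median log2 change was -0.24, against -0.09 over all genes, and the groups did not overlap for 54 genes that stood lower and 1 that stood higher, beside 37.6% and 29.8% of all genes.

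Against wild type labelled nhr-114 RNAi, limma called 1 of 77 genes in Δmetr-1 labelled nhr-114 RNAi, beside 15.9% of all genes (5.87% higher, 10% lower), and 4 of 77 (2 higher, 2 lower) in the metr-1(ww52);Δnhr-10 strain labelled nhr-114 RNAi, beside 12.3% (5.17% higher, 7.1% lower). These comparisons share the wild type libraries. In Δmetr-1 the groups did not overlap for 3 genes that stood higher and 12 that stood lower, beside 31.6% and 39.1% of all genes, and in the metr-1(ww52);Δnhr-10 strain for 10 and 23, beside 32.6% and 32.8%. Their median log2 changes were -0.10 and -0.16, against -0.12 and -0.02 over all genes. In edgeR the first median was 0.07, while median-of-ratios scaling alone left it at -0.04. The difference between libraries labelled nhr-114 RNAi and vector libraries in a mutant, minus that in wild type, was called by limma for 0 of 77 genes in both mutants, beside 0.0347% of all genes for Δmetr-1 and 0.0173% for metr-1(ww52);Δnhr-10. Unadjusted p was under 0.05 for 2 and 3 of them, and edgeR and DESeq2 called 0 in both.

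**Figure D2:**
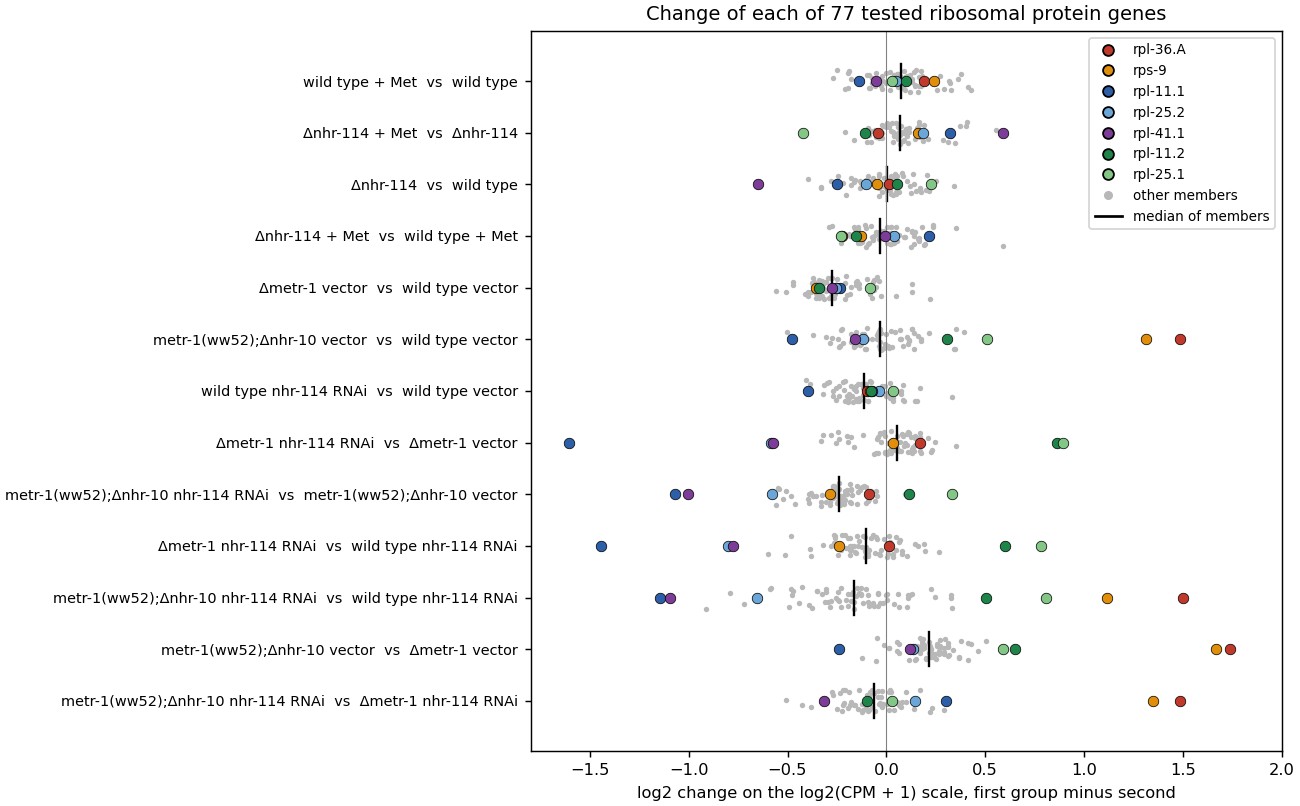
Log2 change of each of 77 tested ribosomal protein genes (horizontal axis, log2(CPM + 1) scale, first-named group minus second) in 13 comparisons of groups; grey points are single genes, coloured points are the 7 named genes and black bars the median. Medians lie between -0.28 and 0.21, while rpl-11.1 reaches -1.61 and rpl-36.A 1.74.

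Of the 4 different genes called in these comparisons, rpl-11.1 and rpl-41.1 belong to pairs of related genes. The protein L11, which enters the large subunit in a complex with L5 and 5S ribosomal RNA, comes from rpl-11.1 on chromosome V and rpl-11.2 on the X chromosome. The autosomal rpl-11.1 had 184 and 167 CPM in the metr-1(ww52);Δnhr-10 strain labelled nhr-114 RNAi and 147 and 137 CPM in Δmetr-1 labelled nhr-114 RNAi. It had 372 and 364 CPM in the metr-1(ww52);Δnhr-10 strain on vector, 497 and 381 CPM in Δmetr-1 on vector, 412 and 366 CPM in wild type labelled nhr-114 RNAi, and 582 and 451 CPM in wild type on vector. All 4 mutant libraries labelled nhr-114 RNAi were below the other 8. The same split held for 46 of 70 mitochondrial ribosomal protein genes. The share of all tested genes split this way is not given here, for this gene or for those below.

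In Δmetr-1 libraries labelled nhr-114 RNAi rpl-11.1 fell, with a log2 change of -1.61 ± 0.21 (SE) against Δmetr-1 on vector and -1.45 ± 0.21 against wild type labelled nhr-114 RNAi (limma Benjamini-Hochberg adjusted p of 0.000956 and 0.000933). The first call was lost without Δmetr-1 labelled nhr-114 RNAi replicate 1 (log2 change -1.66, limma Benjamini-Hochberg adjusted p of 0.0111) and the second without replicate 2 of that group (-1.40, 0.0109). Replicate 1 of this group is also one of the 3 libraries whose nhr-114 level went against the label, and without those 3 neither call was made. Over all 20 alternatives the adjusted p ran from 1.89e-06 to 0.0391 and from 5.17e-06 to 0.0622. In metr-1(ww52);Δnhr-10 labelled nhr-114 RNAi it fell by 1.15 ± 0.21 (SE) on the log2 scale against wild type labelled nhr-114 RNAi (limma Benjamini-Hochberg adjusted p of 0.0039). Leaving out any library of those 2 groups ended this call, with log2 changes of -1.23 to -1.06 and adjusted p of 0.019 to 0.0365, within a range of 0.000157 to 0.116 over all 20 alternatives. Against metr-1(ww52);Δnhr-10 on vector its log2 change was -1.07 ± 0.21 (SE), with a limma Benjamini-Hochberg adjusted p of 0.0101, just outside the threshold. The change between libraries labelled nhr-114 RNAi and vector in Δmetr-1, minus that in wild type, was -1.21 ± 0.30 (SE) for rpl-11.1, and the same difference for metr-1(ww52);Δnhr-10 was -0.67 ± 0.30. Neither was called (limma Benjamini-Hochberg adjusted p of 0.0416 and 0.254).

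The X-linked partner rpl-11.2 was not lower in these libraries. It had 884 and 731 CPM in the metr-1(ww52);Δnhr-10 strain labelled nhr-114 RNAi and 810 and 914 CPM in Δmetr-1 labelled nhr-114 RNAi. On vector it had 732 and 752 CPM in the metr-1(ww52);Δnhr-10 strain and 332 and 673 CPM in Δmetr-1, and wild type had 455 and 707 CPM in libraries labelled nhr-114 RNAi and 552 and 652 CPM on vector. Its log2 change was 0.86 ± 0.32 (SE) in Δmetr-1 labelled nhr-114 RNAi against Δmetr-1 on vector, which was not called (limma Benjamini-Hochberg adjusted p of 0.0691). The 2 groups did not overlap. Without Δmetr-1 on vector replicate 2 it was 1.37 and called (0.00581, in a range of 0.00581 to 0.402 over 20 alternatives). The ratio of rpl-11.2 to rpl-11.1 was 4.82 and 4.38 in the metr-1(ww52);Δnhr-10 strain labelled nhr-114 RNAi and 5.51 and 6.66 in Δmetr-1 labelled nhr-114 RNAi, against 0.668 to 2.06 in the other 8 libraries. The sum of both genes stayed between 829 and 1133 CPM in all 12 libraries. In the methionine experiment the ratio ran from 0.852 to 2.49.

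The pair for L23a had the same layout. The X-linked rpl-25.1 had 839 and 716 CPM in the metr-1(ww52);Δnhr-10 strain labelled nhr-114 RNAi and 832 and 695 CPM in Δmetr-1 labelled nhr-114 RNAi, against 305 to 622 CPM in the other 8 libraries. Its partner rpl-25.2, on chromosome I, had 309 and 253 CPM and 287 and 222 CPM in those groups, against 377 to 535 CPM in the other 8. The 4 mutant libraries labelled nhr-114 RNAi were thus above all others for rpl-25.1 and below all others for rpl-25.2. Neither split is set beside a share of all tested genes. The ratio of rpl-25.1 to rpl-25.2 was 2.72 and 2.83 in the metr-1(ww52);Δnhr-10 strain labelled nhr-114 RNAi and 2.90 and 3.12 in Δmetr-1 labelled nhr-114 RNAi, against 0.797 to 1.64 elsewhere, and the sum of both ran from 688 to 1148 CPM. Neither gene was called: against wild type labelled nhr-114 RNAi, log2 changes in Δmetr-1 labelled nhr-114 RNAi were 0.78 ± 0.27 (SE) for rpl-25.1 and -0.80 ± 0.24 for rpl-25.2 (limma Benjamini-Hochberg adjusted p of 0.0489 and 0.0288). The genes rpl-11.2 and rpl-25.1 are the only 2 of the 78 on the X chromosome. Related copies can share reads in the authors' counting, which treated multimapped reads as normal reads, so the split within a pair is less certain than its sum.

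**Figure D3:**
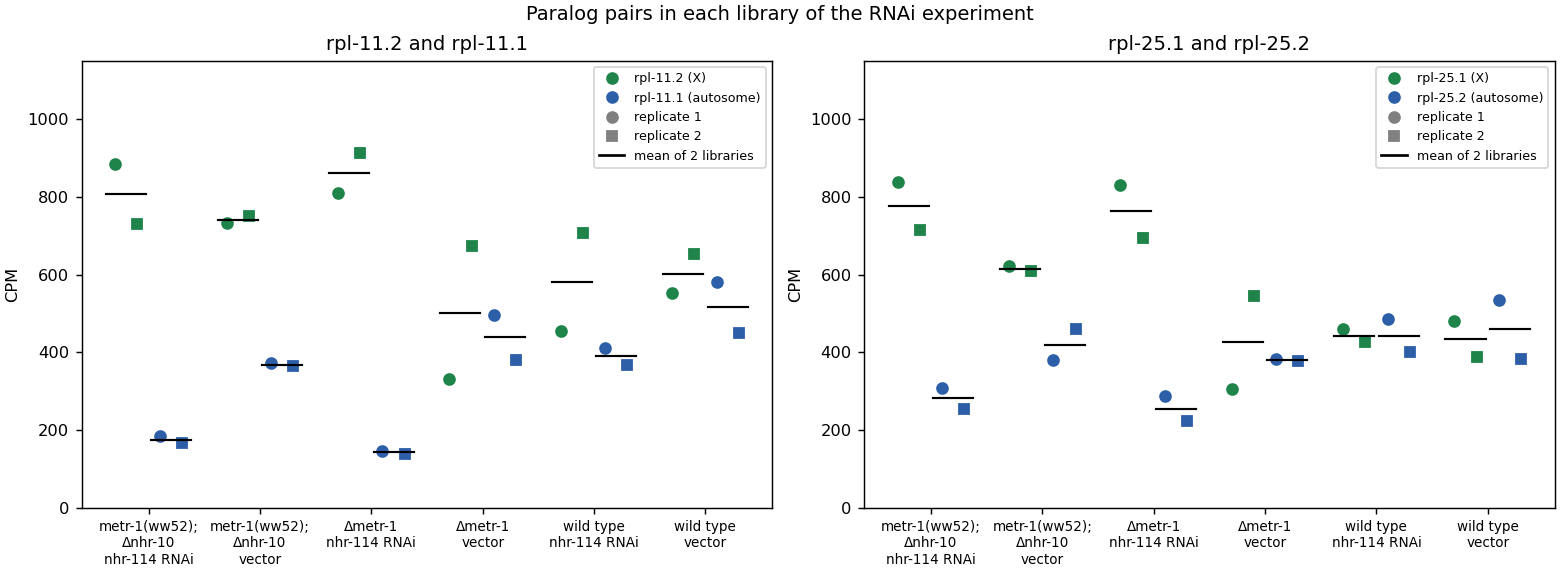
CPM of rpl-11.2 and rpl-11.1 (left) and of rpl-25.1 and rpl-25.2 (right) in each library of the RNAi experiment; circles are replicate 1, squares replicate 2, green the X-linked copy, blue the autosomal copy and bars the mean of 2 libraries. The copies lie far apart in both mutants labelled nhr-114 RNAi, where rpl-11.1 is at 137 to 184 CPM, against 364 to 582 CPM in the other libraries.

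The L41 pair, rpl-41.1 and rpl-41.2, lies on chromosome I. The gene rpl-41.1 had 320 and 347 CPM in the metr-1(ww52);Δnhr-10 strain labelled nhr-114 RNAi and 371 and 465 CPM in Δmetr-1 labelled nhr-114 RNAi, against 563 to 873 CPM in the other 8 libraries, which it did not overlap. It fell by 1.09 ± 0.23 (SE) on the log2 scale in the metr-1(ww52);Δnhr-10 strain labelled nhr-114 RNAi against wild type labelled nhr-114 RNAi (limma Benjamini-Hochberg adjusted p of 0.0075), a call that held in 6 of 20 alternatives, where the adjusted p ran from 0.00284 to 0.0819. The abundant rpl-41.2 had 11985 and 9589 CPM in the metr-1(ww52);Δnhr-10 strain labelled nhr-114 RNAi, against 14831 and 17506 CPM in wild type labelled nhr-114 RNAi, a log2 change of -0.59 ± 0.20 (SE) that was not called (limma Benjamini-Hochberg adjusted p of 0.0544).

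Germline markers were low in the mutant libraries labelled nhr-114 RNAi, and so were other lists. The summed level of 11 germline genes, among them pgl-1, glh-1 and gld-1, was 414 and 468 CPM in the metr-1(ww52);Δnhr-10 strain labelled nhr-114 RNAi and 326 and 355 CPM in Δmetr-1 labelled nhr-114 RNAi, against 864 to 1988 CPM in the other 8 libraries. For 10 of the 11 genes these 4 libraries lay below the other 8, and none of the 11 was at 0. The same split held for 46 of 70 mitochondrial ribosomal protein, 22 of 32 ribosome biogenesis and 15 of 35 translation initiation genes. It held for 0 of 8 intestine, 0 of 9 body wall muscle and 0 of 9 neuron genes. The share of all tested genes with this split is not given here. Summed major sperm protein genes were at 224 to 591 CPM, against 2634 to 8227 CPM, with msp-32, msp-63 and msp-74 at 0 in at least 1 of the 4. Summed neuronal markers were higher, at 818 to 927 CPM, against 462 to 560 CPM, and summed yolk, oocyte and molting markers overlapped. Gene by gene, the 4 libraries lay below the other 8 for 7 of 12 oocyte genes, and for 0 yolk or molting genes. These 4 libraries also differed in stage-related markers among themselves. Summed yolk genes were at 345 and 3423 CPM in the metr-1(ww52);Δnhr-10 strain and 3245 and 5518 CPM in Δmetr-1, and molting cuticle genes at 5786 and 1238 CPM and at 1810.2 and 454 CPM in those strains. The part of cell composition or stage in the changes of rpl-11.1, rpl-25.2 and rpl-41.1 was not tested.

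A different pattern set metr-1(ww52);Δnhr-10 apart under both treatments. The gene rpl-36.A, whose RefSeq name is rpl-36A and which encodes a large-subunit protein, had 1624 and 1517 CPM in the metr-1(ww52);Δnhr-10 strain labelled nhr-114 RNAi and 1376 and 2020.2 CPM in the metr-1(ww52);Δnhr-10 strain on vector. It had 622 and 505 CPM in Δmetr-1 labelled nhr-114 RNAi, 430 and 578 CPM in Δmetr-1 on vector, 576 and 533 CPM in wild type labelled nhr-114 RNAi, and 695 and 507 CPM in wild type on vector. The 4 libraries of this strain averaged 1634 ± 277 CPM, against 556 ± 81.1 CPM in the other 8 (SD over libraries), 2.94 times as much. The lowest of the 4 was 1.98 times the highest of the 8.

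The gene rps-9, for a small-subunit protein that binds ribosomal RNA early in assembly, had 1440.1 and 1315 CPM in the metr-1(ww52);Δnhr-10 strain labelled nhr-114 RNAi and 1513 and 1853 CPM in the metr-1(ww52);Δnhr-10 strain on vector, against 439 to 682 CPM in the other 8 libraries. The means were 1530.0 ± 230 CPM and 596 ± 86.3 CPM, a ratio of 2.57, and again the groups were far apart. In the methionine experiment, which did not include this strain, rpl-36.A ran from 614 to 780 CPM and rps-9 from 582 to 806 CPM. Over all genes tested, 0.693% had all 4 libraries of the strain above the other 8. Among the other 75 tested ribosomal protein genes the mean log2 difference between the strain and the rest lay between -0.39 and 0.48.

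Both genes rose in the metr-1(ww52);Δnhr-10 strain labelled nhr-114 RNAi against wild type labelled nhr-114 RNAi, by 1.499 ± 0.25 (SE) on the log2 scale for rpl-36.A and 1.11 ± 0.21 for rps-9 (limma Benjamini-Hochberg adjusted p of 0.0024 and 0.00437). Leaving out any 1 library of those 2 groups ended both calls, with log2 changes of 1.44 to 1.56 for rpl-36.A and 1.01 to 1.21 for rps-9. Over all 20 alternatives the call was lost in 5 for rpl-36.A and in 9 for rps-9. Log2 changes there ran from 1.44 to 1.57 and from 0.947 to 1.21. On vector the log2 changes against wild type were 1.49 ± 0.25 (SE) and 1.31 ± 0.21, not called at the threshold used (limma Benjamini-Hochberg adjusted p of 0.0299 and 0.0231). In this comparison rps-9 was called without Δmetr-1 on vector replicate 1 or 2, which are outside the contrast but share its spread estimate, and over 20 alternatives its limma Benjamini-Hochberg adjusted p, or that of edgeR or DESeq2, ran from 0.00687 to 0.203. A comparison of the strain with Δmetr-1 was added after the values were seen. On vector the log2 changes were 1.74 ± 0.25 (SE) for rpl-36.A and 1.67 ± 0.21 for rps-9 (limma Benjamini-Hochberg adjusted p of 0.0478 and 0.0309), and with both strains labelled nhr-114 RNAi they were 1.49 ± 0.25 and 1.35 ± 0.21 (limma Benjamini-Hochberg adjusted p of 0.14 and 0.108).

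**Figure D4:**
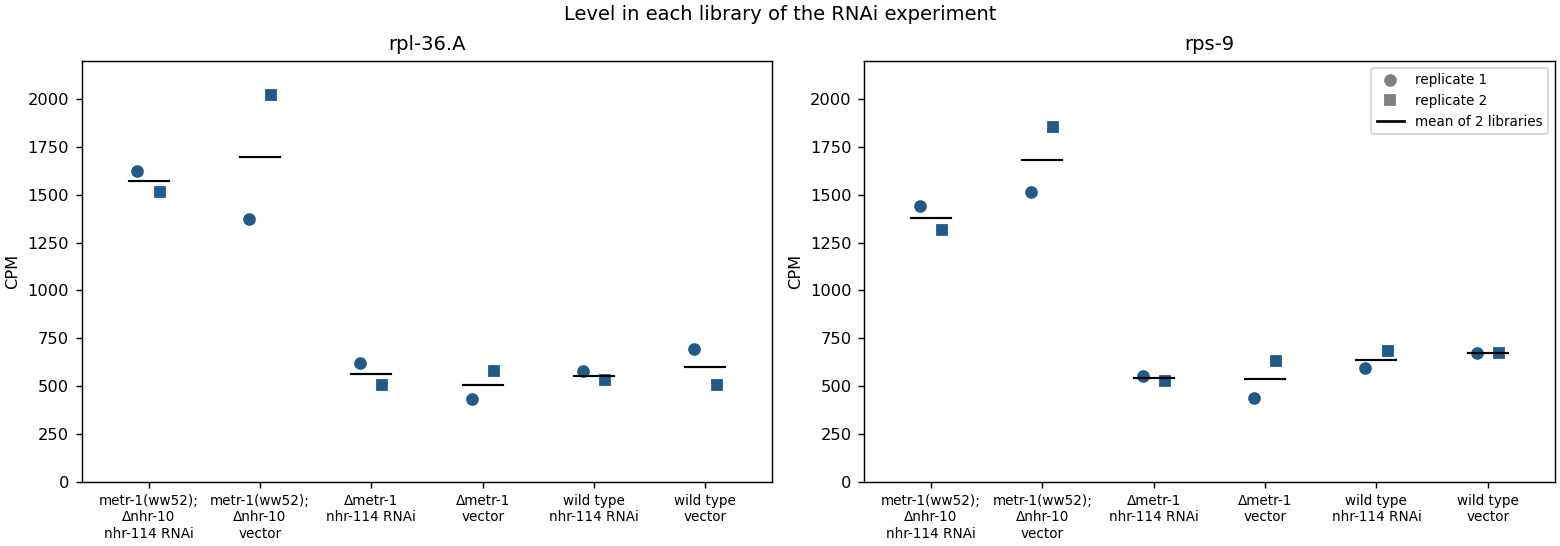
CPM of rpl-36.A (left) and rps-9 (right) in each library of the RNAi experiment, by group; circles are replicate 1, squares replicate 2 and bars the mean of 2 libraries. The 4 libraries of metr-1(ww52);Δnhr-10 lie at 1315 CPM or above for both genes, and the other 8 at 695 CPM or below.

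These 2 genes share a place in the genome. In the WBcel235 assembly rpl-36.A lies on the minus strand of chromosome II from 11096542 to 11097204 and rps-9 on the minus strand from 11125371 to 11126362, and no other coding gene overlaps either. The gene metr-1, which carries the ww52 allele, lies on the same chromosome from 10926561 to 10931078. Neighbouring genes stood apart in the same way. In a stretch of 177 kb from the start of ptp-3 at 10975539 to the end of pqm-1 at 11152595, which begins 44.5 kb beyond metr-1, 27 genes were tested. For 14 of them, or 51.9%, all 4 libraries of the strain were above the other 8, against 66 of 11516 tested genes elsewhere. The ends of the stretch were set after the values were seen, so these counts are a description without a test.

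The mean of the 4 log2 changes of the strain against Δmetr-1 and wild type, on vector and labelled nhr-114 RNAi, had a median of 1.23 over the 27 genes and ran from 0.38 to 1.96. Besides rpl-36.A (1.55) and rps-9 (1.36) the stretch held cey-1, a Y-box RNA-binding protein gene (1.70), nuo-1 (1.43) and sdhd-1 (1.35), which encode subunits of respiratory complexes, and unc-53 (1.96), a gene of cell migration and axon guidance. With metr-1 left out, the median in the 200 kb before the stretch was 0.09 over 33 genes. Of these, 1 had all 4 libraries above the other 8. In the 200 kb after the stretch the median was -0.00 over 31 genes, of which 0 did. On vector metr-1 had 555 and 462 CPM in the strain, 59.8 and 69.4 in wild type and 372 and 468 in Δmetr-1. In the groups labelled nhr-114 RNAi it had 130 and 116 CPM, 94.5 and 73.7 CPM, and 30.3 and 45.7 CPM, in that order. The remaining 7 tested ribosomal protein genes of chromosome II had mean log2 differences of -0.28 to 0.24 between the strain and the rest. The gene rpl-42 also lies in the stretch, from 11092713 to 11094022, but had too few reads to be read. In these groups the ww52 allele, the nhr-10 deletion and other differences between the strains cannot be told apart.

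**Figure D5:**
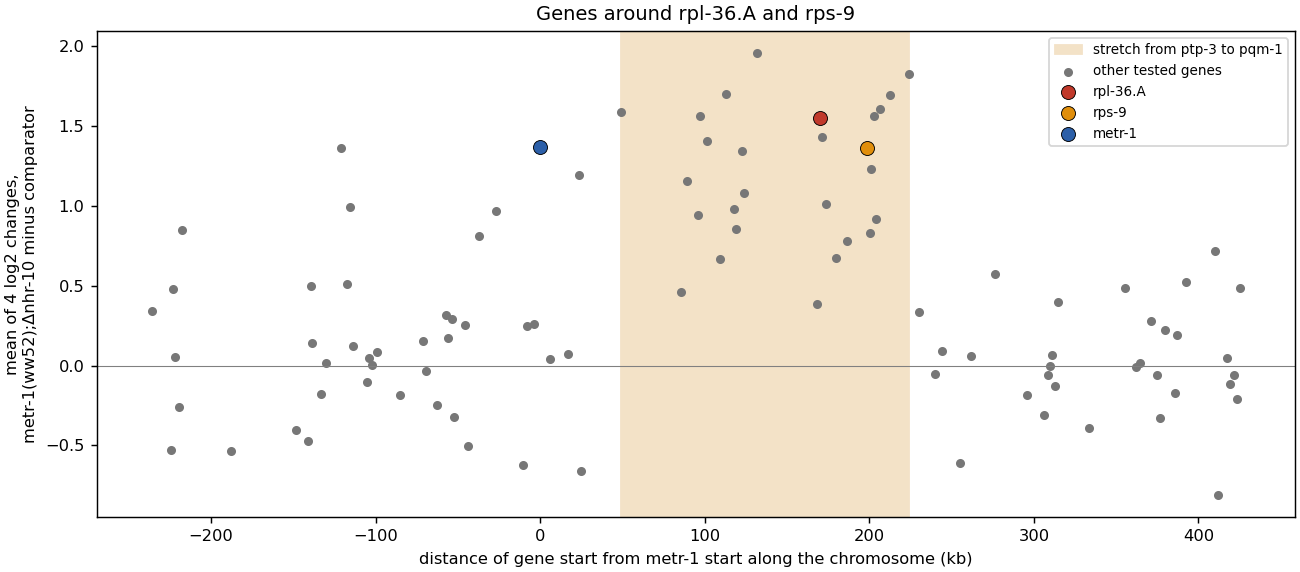
Mean of 4 log2 changes of metr-1(ww52);Δnhr-10 against Δmetr-1 and wild type on both treatments (vertical axis, log2(CPM + 1) scale) for each tested gene around metr-1, by distance of the gene start from the metr-1 start (horizontal axis, kb); the shaded stretch runs from ptp-3 to pqm-1. All 27 genes of the stretch lie between 0.38 and 1.96, while the 200 kb on either side, without metr-1, have medians of 0.09 and -0.00.

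Some other lists of the translation machinery also held genes that fell in the mutants labelled nhr-114 RNAi. In several comparisons the share called lower was no larger than among all genes. The list of 31 tested ribosome biogenesis genes, which act in the nucleolus or in ribosomal RNA synthesis, had 6 called lower and 0 higher by limma in Δmetr-1 labelled nhr-114 RNAi against Δmetr-1 on vector, beside 11% of all genes called lower, with a median log2 change of -0.98, against -0.11 over all genes. Against wild type labelled nhr-114 RNAi, 7 were called lower in Δmetr-1 and 5 in the metr-1(ww52);Δnhr-10 strain, both labelled nhr-114 RNAi, beside 10% and 7.1% of all genes called lower, with medians of -0.98 and -0.81, against -0.12 and -0.02 over all genes. In metr-1(ww52);Δnhr-10 labelled nhr-114 RNAi against vector none passed the threshold, beside 3.38% of all genes called lower, with a median of -0.61, against -0.09 over all genes, and fib-1 had a log2 change of -1.35 ± 0.29 (SE) with a limma Benjamini-Hochberg adjusted p of 0.0138. The fibrillarin gene fib-1 fell by 1.501 ± 0.29 (SE) and nol-58, for a protein of the same small nucleolar particle, by 1.55 ± 0.27 on the log2 scale in Δmetr-1 labelled nhr-114 RNAi against vector (limma Benjamini-Hochberg adjusted p of 0.00457 and 0.00298). The summed level of the whole list of 32 genes was 1816 to 2637 CPM in the 4 mutant libraries labelled nhr-114 RNAi. It was 3584 to 5438 CPM in the other 8.

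Of 34 tested translation initiation genes, 5 were called lower in Δmetr-1 labelled nhr-114 RNAi against vector and 2 in the metr-1(ww52);Δnhr-10 strain labelled nhr-114 RNAi against vector, with 0 called higher in either, beside 11% and 3.38% of all genes called lower. The cap-binding genes ife-1, ife-3 and ife-5 and the initiation factor 5A gene iff-1 were among them in Δmetr-1, with log2 changes of -1.46, -2.18, -1.798 and -1.99. In metr-1(ww52);Δnhr-10 they were ife-5 and iff-1, with log2 changes of -1.88 and -1.24. Other genes of these families on the list moved less. For the change in metr-1(ww52);Δnhr-10 minus that in wild type, ife-2, ife-4 and iff-2 were at 0.10, -0.42 and 0.08. In that difference ife-5 and iff-1 were at -1.87 and -0.84. The 69 tested mitochondrial ribosomal protein genes had medians of -0.70 and -0.62 in the same comparisons, with 0 and 1 called lower, beside the same 11% and 3.38% of all genes. The summed level of the whole list of 70 was 1657 to 2169 CPM in the 4 libraries, against 2966 to 3530.0 CPM in the other 8. The 6 elongation factor genes and 5 other ribosomal protein genes (rla-0, rla-1, rla-2, ubl-1 and ubq-2, for the stalk proteins and ubiquitin fusions) had no member past the threshold in limma in these comparisons. In Δmetr-1 animals and metr-1(ww52);Δnhr-10 animals, labelled nhr-114 RNAi against vector, those 5 had median log2 changes of 0.00 and -0.23, and the elongation factor genes of -0.13 and -0.15. Germline markers were low in the same 4 libraries, as given above, and the part of cell composition in these changes was not tested.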

How the data were processed

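The authors sequenced whole-animal RNA as CEL-seq2 libraries, in a modified form that counts transcript 3′ ends. Reads were trimmed with Trimmomatic 0.32, aligned with STAR and assigned with ESAT, with multimapped reads set to normal, to the WormBase WS271 gene set. The deposited tables are named TPM, but their values are CPM: 100% of the deposited CPM values were whole multiples of 1 read (tolerance 0.05). Whether strand was used is not given in the sources used here, and 4 of the genes overlap another coding gene on the same strand and 10 on the other. Samples were grouped by title, and 0 columns were left unmapped.

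Log2(CPM + 1) values were tested with limma 3.58.1 (R 4.3.3, trend, robust, two-sided), fitting a mean for each group to every library of an experiment, for genes that reached 5 CPM in 2 or more libraries (10948 in the methionine and 11543 in the RNAi experiment). Log2 changes keep the added 1 and so are too small for low genes. Genes were called at a Benjamini-Hochberg adjusted p under 0.01, over all genes tested, and a change over 1.5-fold. A count of 0 allows up to 3 reads, or 0.123 to 2.16 CPM by library. This covers counting error only. Alternatives were edgeR 4.0.16 quasi-likelihood and DESeq2 1.42.0 on the recovered reads, median-of-ratios scaling, no filter, a pseudocount of 5, the compared libraries only, a replicate block and leaving out libraries. The script was tested on simulated data.

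Named genes were a fixed list of landmark and paired genes, per comparison the called genes that rose or fell most (at most 3 each way), the gene with the lowest p where none was called, and the 5 genes farthest from and 3 closest to the median of the group. The genes and lists were chosen with earlier results of these data known. Symbols and positions came from Ensembl release 115 (WBcel235), and RefSeq names were found for 78 genes. The 2 comparisons of metr-1(ww52);Δnhr-10 with Δmetr-1 were added after the data were seen.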

Additional observations from a re-analysis of the deposited data

How the results depend on the processing

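In the methionine experiment 0 of the 77 ribosomal protein genes were called under the alternatives run, and their medians moved by less than the spread between replicates, although those of Δnhr-114 against wild type without methionine and of the difference of methionine effects changed sign with median-of-ratios scaling. Leaving out 1 library turned the sign of each of these medians, which ran from -0.032 to 0.17 for methionine in wild type, -0.069 to 0.19 for methionine in Δnhr-114, -0.12 to 0.14 and -0.094 to 0.047 for Δnhr-114 against wild type without and with methionine, and -0.17 to 0.12 for the difference of methionine effects. In the RNAi experiment the calls rested on few libraries. Among the genes, limma called 0 in Δmetr-1 labelled nhr-114 RNAi against vector when only the compared libraries were fitted, 0 there without the 3 libraries whose nhr-114 level went against the label, and 0 without those 3 in Δmetr-1 and in the metr-1(ww52);Δnhr-10 strain, each labelled nhr-114 RNAi, against wild type labelled nhr-114 RNAi. In the last of these comparisons the count of 4 became 1 with no filter, 2 with median-of-ratios scaling, 1 with the compared libraries only and 2 with edgeR. For metr-1(ww52);Δnhr-10 on vector it became 2 with the compared libraries only and 1 with DESeq2 against wild type, and 2 with DESeq2 against Δmetr-1. With libraries labelled nhr-114 RNAi against vector in the metr-1(ww52);Δnhr-10 strain it became 1 with DESeq2. The medians that moved were those of Δmetr-1 labelled nhr-114 RNAi against vector (0.34 with edgeR, 0.25 with DESeq2) and against wild type labelled nhr-114 RNAi (0.074 with edgeR, -0.29 without the 3 libraries). For metr-1(ww52);Δnhr-10 the median against wild type, both labelled nhr-114 RNAi, was -0.41 without the 3 libraries. The change between libraries labelled nhr-114 RNAi and vector in a mutant, minus that in wild type, had medians of 0.33, 0.44 and 0.36 with median-of-ratios scaling, edgeR and DESeq2 and -0.015 without the 3 libraries for Δmetr-1, and -0.35 without them for metr-1(ww52);Δnhr-10. Where the cause of a change is not given by the smaller number of libraries, the cause was not tested. Leaving out each library in turn gave the following ranges. Counts of called genes ran from 0 to 1 for metr-1(ww52);Δnhr-10 on vector against wild type and against Δmetr-1, 0 to 3 for Δmetr-1 labelled nhr-114 RNAi against vector and 0 to 1 against wild type labelled nhr-114 RNAi, and 0 to 1 and 0 to 4 for metr-1(ww52);Δnhr-10 in the same 2 comparisons. The 3 calls came without Δmetr-1 on vector replicate 2. Medians ran from -0.47 to -0.064 for Δmetr-1 against wild type on vector, -0.28 to 0.023 for wild type and -0.15 to 0.25 for Δmetr-1, each labelled nhr-114 RNAi against vector, -0.32 to 0.038 for Δmetr-1 and -0.33 to -0.0152 for metr-1(ww52);Δnhr-10 against wild type, all labelled nhr-114 RNAi, -0.0043 to 0.37 and -0.30 to 0.014 for those changes in Δmetr-1 and in the other mutant minus that in wild type, and 0.040 to 0.42 for metr-1(ww52);Δnhr-10 against Δmetr-1 on vector. In such a fit the lone library is assumed to vary like the other groups. Replicate numbers were not taken to pair the libraries, since not every pair of groups correlated over 0.1: deviations of same-numbered libraries correlated over all tested genes at -0.66 to 0.31 in the methionine experiment and -0.47 to 0.68 in the RNAi experiment, over 0.1 in 2 of 6 and 6 of 15 pairs of groups. Over the ribosomal protein genes alone they ran from -0.47 to 0.58 and from -0.33 to 0.73, highest among wild type on vector and wild type and Δmetr-1 labelled nhr-114 RNAi (0.73, 0.67 and 0.58), and the 3 libraries with high nhr-114 are all replicate 1, so a partial link between same-numbered libraries remains possible. The replicate block changed 1 count, to 2 called genes for libraries labelled nhr-114 RNAi against vector in the metr-1(ww52);Δnhr-10 strain. Groups of 2 libraries and the shallowest libraries of 1389117 and 2542155 reads limit what could be called.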
